A study of Mus musculus with 6 samples.

Results

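Small nucleolar RNAs (snoRNAs) were examined in the LT-HSCs (long-term hematopoietic stem cells) of mice lacking latexin (Lxn-/-) and of WT mice. The group comprised every probe set whose gene symbols in the platform annotation were all snoRNA symbols, which gave 58 probe sets of 23410 with a symbol. These 58 stood for 53 snoRNA symbols, with 35 probe sets for C/D box snoRNAs (Snord) and 23 for H/ACA box snoRNAs (Snora). The probe sets were chosen by symbol, and the family itself was picked from its Lxn-/- minus WT values on these same 6 arrays, so the genotype differences below are a description.

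WT mice carried an intact latexin gene, and Lxn-/- mice lacked its exons 2 to 4 and latexin protein, an inhibitor of metallocarboxypeptidases. All mice were C57BL/6 females aged 8 to 12 weeks, and no other allele or treatment was named. Each genotype was measured on 3 mouse Gene ST arrays, and each array received the RNA of about 100000 LT-HSCs sorted from the bone marrow of 10 to 20 pooled mice, so the spread given here is a spread between pools. The sort took lineage- Sca1+ c-Kit+ CD34- cells that were also Flt2-, the last marker being spelled as in the labels. The series asks which genes differ in expression in these cells once latexin is deleted.

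snoRNAs are short, stable RNAs of the nucleolus. C/D box snoRNAs guide methylation of the ribose in ribosomal RNA (rRNA), and H/ACA box snoRNAs guide the conversion of uridine to pseudouridine, while a few members of both classes are required for cutting the rRNA precursor. In mammals most are cut out of the introns of host genes, many of which encode ribosomal proteins or translation factors, so that a snoRNA and its host's spliced RNA leave the same transcript and then have separate fates.

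The snoRNA genes were 45 to 205 bases long in the RefSeq gene table, with medians of 71 bases for the Snord and 122 for the Snora probe sets. Of the 58 probe sets, 56 stood for a snoRNA gene lying inside another gene of that table. The 41 hosts ranged from ribosomal protein genes, which held 24 of the probe sets, to noncoding transcripts such as Gas5 and the Snhg genes, which held 14. The exception was Snord118, the U8 snoRNA, which is transcribed from its own gene and was read by 2 probe sets with identical values.

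The snoRNAs' transcription is that of their hosts, so the hosts' start sites are shown. Host genes of this kind are known for starting at a cytidine followed by pyrimidines, the start of the terminal oligopyrimidine (TOP) messages. A C at the annotated start followed by at least 4 bases that were each C or T was found, on the gene's own strand, for 6 of the 32 hosts present in the RefSeq promoter table (18.8%) and for 3.01% of all 27025 genes of that table. Within 10 bases before to 15 bases after the start, 50.0% of these hosts and 34.4% of all genes held such a run. A match is a description of these letters. The 6 hosts with the run are shown first and then 4 hosts of snoRNAs described below that lack it there, each with 10 bases before and 20 bases from the start, 5′ to 3′, build GRCm38.p6, and the run in capitals.
Rack1 (chr11:48800350-48800379, plus strand): gccgctctttCTTTTTCTCCacagggtcgt
Ipo7 (chr7:110018305-110018334, plus strand): gcttctctttCCTTTCgcgccggttgccgc
1110038B12Rik (chr17:34952449-34952478, minus strand): gcacacgggtCTCTTTgtgcacccgcccac
Gas5 (chr1:161035156-161035185, plus strand): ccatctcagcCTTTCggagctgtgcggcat
Rplp2 (chr7:141447641-141447670, plus strand): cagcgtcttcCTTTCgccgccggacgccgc
Gm36220 (chr11:106500905-106500934, plus strand): ccattccggcCTCTTatcgacggggactgc
Rpl27a (chr7:109519185-109519214, plus strand): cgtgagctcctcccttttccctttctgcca
Ncl (chr1:86359436-86359465, minus strand): cggggacggacgcgagctctggttggtgga
Rbmx (chrX:57393017-57393046, minus strand): tttccatccgggttcttcagcctcgttccc
Snhg16 (chr11:116671650-116671679, plus strand): gcgcaagcgcgatctcgtcctttccgaggt
In Rpl27a a pyrimidine tract lies across the annotated start but does not begin there with C, so it was counted only in the wider window.

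Values are log2 expression values normalized by the authors, and differences are Lxn-/- minus WT on that log2 scale. A probe set was taken as above background on an array where its value exceeded the 95th percentile of the probe sets for odorant or pheromone receptors, genes of sensory neurons. By this rule 49 of the 58 snoRNA probe sets were above background on all 6 arrays, and the 2 Snord58b probe sets were so on 0. The other probe sets that missed it on 1 or more arrays were the 2 shared by Snord1c and Snord1b, and those of Snora41, Snora2b, Snord52, Snord38a and Snord73a. Lxn itself read 8.99, 9.09 and 9.55 in WT pools 1 to 3 and 8.66, 8.78 and 8.78 in Lxn-/- pools 1 to 3, a difference of -0.47 (SE 0.14, limma adjusted p = 0.993), so the genotypes did not overlap. Where its probes lie relative to the deleted exons is not known here. Of the 10 LT-HSC markers looked for, 8 were measured and all 8 were above background on every array. Cd34, whose protein the sort excluded, and Flt3, taken here as a second marker to be absent, were also above background on all 6. Cd34 averaged 13.12 in WT and 13.18 in Lxn-/-, above every measured LT-HSC marker, of which Kit was highest at 12.85 and 12.89. Flt3 averaged 11.93 and 11.99, above all of them but Kit and Hlf. The sort read surface protein, and these are RNA values. Medians over all tested probe sets lay between 8.24 and 8.26 on every array. In bulk samples such as these, fewer cells of a type and less RNA per cell cannot be told apart.

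snoRNA signal was higher on average in the Lxn-/- pools for nearly the whole family. The mean was higher for 57 of the 58 probe sets, beside 45.5% of all probe sets tested, and Snord15b alone was lower, at -0.04. The median difference was 0.21, with quartiles of 0.15 and 0.34, against -0.01 over all probe sets tested. After Benjamini-Hochberg adjustment in limma 0 snoRNA probe sets were below 0.05, as were 0% of all probe sets, and the smallest adjusted value in the family was 0.993. At an unadjusted p under 0.05 there were 14 snoRNA probe sets, all higher, beside 1.47% of all probe sets called higher and 2.43% called lower. Genotypes were fully separated, each Lxn-/- value beyond each WT value, for 13, all higher, beside 3.6% of all probe sets as higher and 5.38% as lower. Some of these are repeats of 1 measurement. The pairs of Snord1c with Snord1b, Snord118 and Snora30, 6 probe sets, each held identical values. Counted once, they left 55 probe sets, of which 13 had a limma unadjusted p under 0.05 and 12 were fully separated. These are the contrast and the arrays with which the family was noticed, and no independent weight attaches to the counts.

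The shift rested largely on 1 WT pool. The array of WT replicate 3 gave the lowest of the 6 values for 44 of the 58 probe sets and the highest for 0, whereas over all probe sets tested it was the lowest for 20.3%. The median deviation of the snoRNA probe sets from their own means over the 6 arrays was 0.037, -0.090 and -0.32 in WT pools 1 to 3 and 0.061, 0.10 and 0.14 in Lxn-/- pools 1 to 3. WT pool 1 therefore read close to Lxn-/- pool 1, WT pool 2 somewhat lower, and WT pool 3 well below all others. Set against WT pool 1, the 3 Lxn-/- pools were higher for 34, 35 and 42 of the 58. The shares of all probe sets that were higher in these pairs of arrays were 51.9%, 47.3% and 51.2%. Set against WT pool 2 the Lxn-/- pools were higher for 38, 48 and 48, beside 47.3%, 43.5% and 49.1% of all. Against WT pool 3 they were higher for 52, 58 and 58, beside 46.9%, 43.6% and 48.8%. Without WT replicate 3 the median difference was 0.11 and 51 probe sets were higher, beside 47.7% of all probe sets. Of these 51, 7 had an unadjusted p under 0.05 in limma, beside 1.0% of all probe sets called higher. Without WT replicate 1 the median difference was 0.33, with 30 at an unadjusted p under 0.05, beside 3.34% of all, and 34 that did not overlap. The corresponding counts were 4 and 17 without Lxn-/- replicate 2, beside 2.12% of all at that p, and 8 and 14 without Lxn-/- replicate 3, beside 1.80%. Without WT replicate 2 or Lxn-/- replicate 1 the number that did not overlap was 21 each, and with fewer arrays in a group non-overlap is met more often, by 6.01% to 10.2% of all probe sets as higher. In these 2 settings 13 and 15 had an unadjusted p under 0.05 in limma, beside 1.19% and 0.914% of all called higher.

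**Figure D1:**
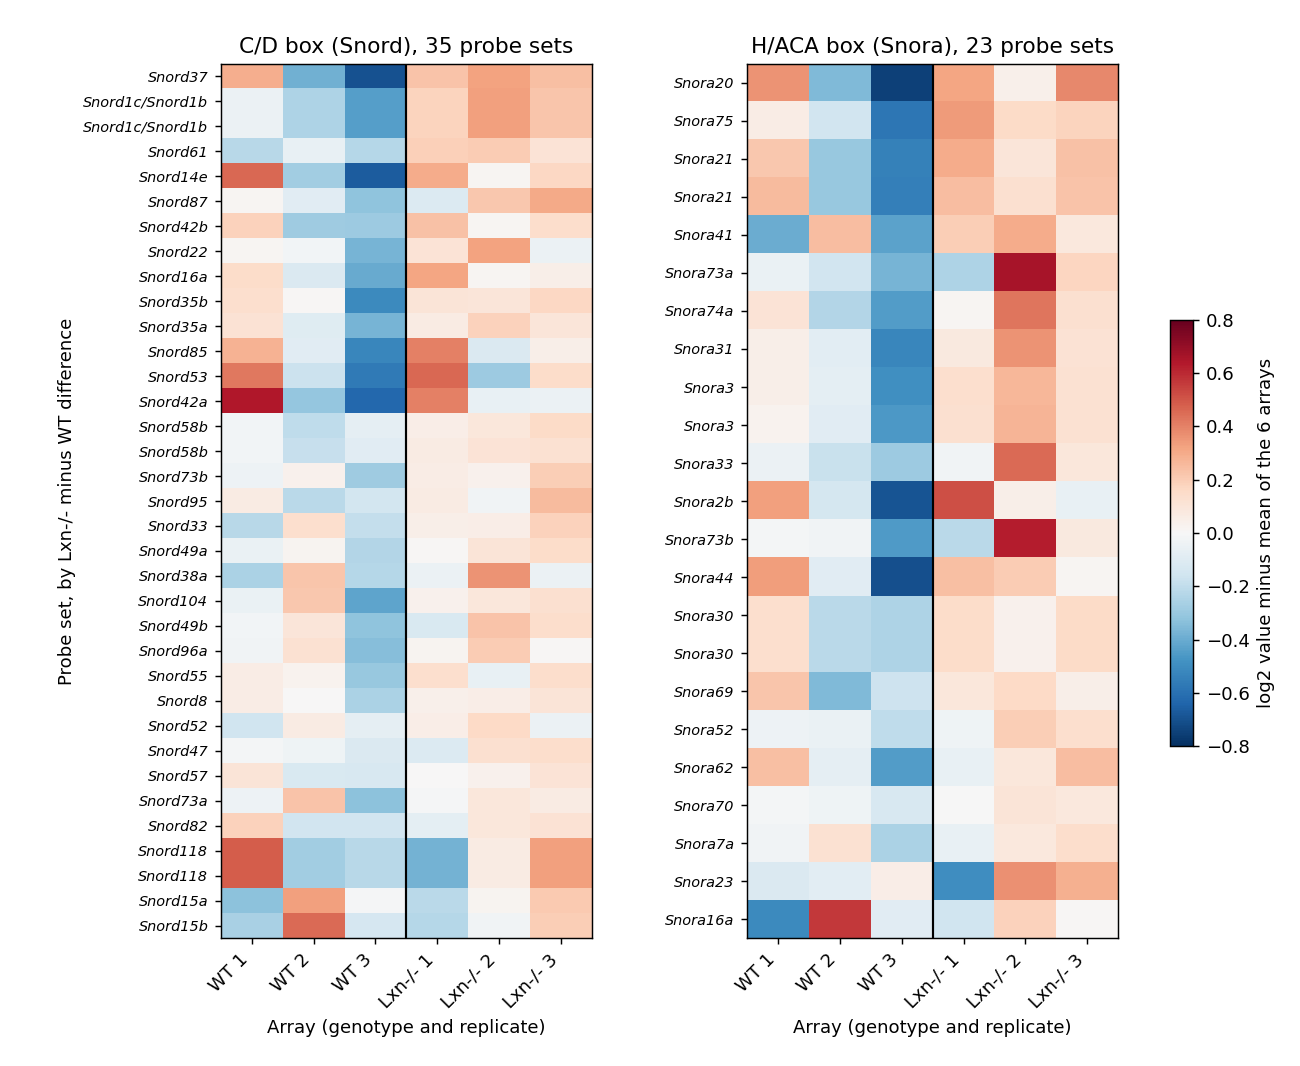
Each row is a snoRNA probe set and each column an array, with C/D box members on the left and H/ACA box members on the right, ordered by the Lxn-/- minus WT difference. Colour gives the log2 value minus the probe set's mean over the 6 arrays; the WT 3 column is the lowest of its row for 44 of 58 probe sets, and rows at the bottom, such as Snord15a, Snord15b, Snord118 and Snora16a, vary between pools without following genotype.

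Signals of other cells also differed between these pools. Neutrophil markers were lowest in WT pool 3 for 5 of 7 genes, and the summed signal of the 7, given as log2, ranged from 14.23 to 14.99 in WT and from 14.62 to 15.07 in Lxn-/-. S100a8, an abundant neutrophil protein gene, read 11.50, 10.67 and 8.42 in WT pools 1 to 3 and 11.08, 9.94 and 11.82 in the Lxn-/- pools. The median snoRNA deviation was 0.10 in Lxn-/- pool 2, with the next lowest S100a8 value, and 0.14 in Lxn-/- pool 3, with the highest. Markers of B cells were lower in Lxn-/- for 5 of 5 measured genes, with summed signals of 12.45 to 13.08 in WT and 12.32 to 12.52 in Lxn-/-. Plasma cell markers were lower for 5 of 5, with 13.42 to 13.76 in WT and 13.01 to 13.17 in Lxn-/-. Erythroid and mast cell markers were each lower for 3 of 3 measured genes, and their summed signals were highest in WT pool 3, at 10.43 against 9.57 to 10.11 and at 12.22 against 11.04 to 12.16 over Lxn-/- pools. Monocyte markers were higher for 3 of 3, with the lowest sum in WT pool 3, at 12.04 against 12.21 to 12.82 over Lxn-/- pools. T cell and megakaryocyte markers were higher for 4 of 5 and 2 of 3, but their summed signals overlapped between genotypes. The T cell sums were 9.82 to 10.28 in WT and 9.72 to 10.57 in Lxn-/-, and Cd3d and Cd3g were above background on 0 and 3 arrays. The megakaryocyte sums were 11.05 to 11.10 in WT and 11.02 to 11.46 in Lxn-/-. Both sums were highest in Lxn-/- pool 2. The part of these signals in the snoRNA differences was not tested.

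The median difference was larger for H/ACA box than for C/D box snoRNAs, but the contrast between the classes overlapped between genotypes. All 23 Snora probe sets were higher in Lxn-/-, with a median difference of 0.33 and a range from 0.02 to 0.49. Of the 35 Snord probe sets 34 were higher, with a median of 0.19 and a range from -0.04 to 0.53, so the ranges of the classes overlapped almost wholly. Unadjusted p-values under 0.05 were found for 8 Snora and 6 Snord probe sets. Among probe sets above background on all 6 arrays these numbers were 8 of 21 Snora and 2 of 28 Snord, beside 236 called higher and 255 called lower of all 15593 probe sets that met this filter. The other 4 Snord probe sets were the dim ones of Snord1c with Snord1b and of Snord58b. The median deviation of the Snora probe sets minus that of the Snord probe sets was 0.034, 0.00078 and -0.16 on WT arrays 1 to 3 and 0.038, 0.094 and -0.015 on Lxn-/- arrays 1 to 3. The genotypes overlapped in this contrast, which averaged -0.041 ± 0.10 in WT and 0.039 ± 0.055 in Lxn-/- (SD, n = 3 each). The class medians of the genotype difference were 0.14 apart, and only 0.056 apart without Lxn-/- replicate 2. Without WT replicate 3 the medians were 0.19 for Snora and 0.078 for Snord.

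**Figure D2:**
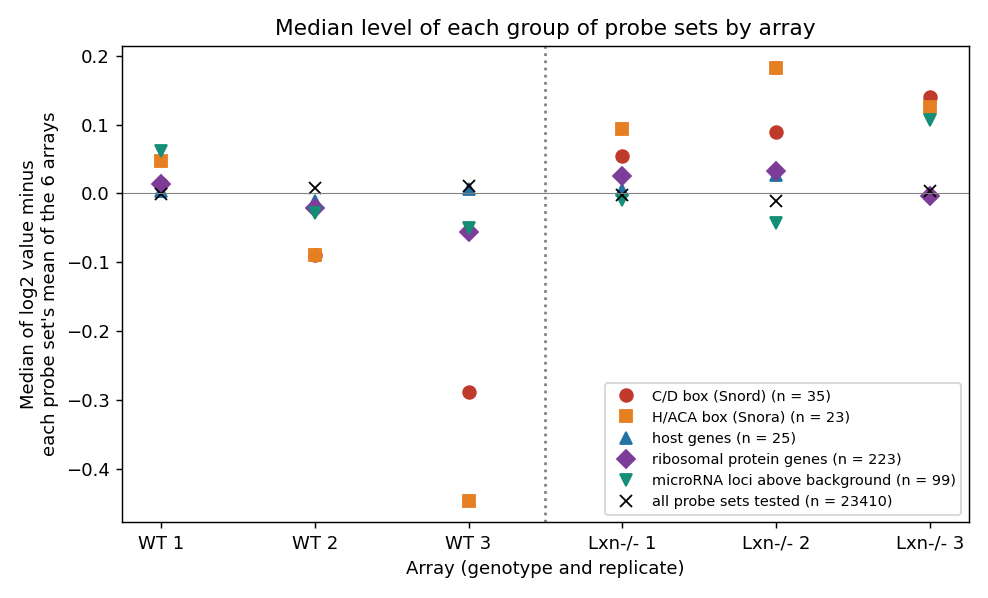
For each array, points give the median over a group of probe sets of the log2 value minus the probe set's mean over the 6 arrays. C/D box and H/ACA box snoRNAs lie at -0.29 and -0.45 on WT 3 and between 0.05 and 0.18 on the 3 Lxn-/- arrays, while their host genes and all probe sets tested stay within 0.03 of 0.

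Among C/D box members the lowest unadjusted p-values belonged to Snord1c with Snord1b and to Snord61. The probe set shared by Snord1c and Snord1b, snoRNAs of the noncoding host Snhg16, occurred in 2 copies with identical values, here counted once, and read 6.65, 6.45 and 6.25 in WT and 6.87, 7.02 and 6.91 in Lxn-/-. All Lxn-/- values lay above all WT values, but the probe set was above background on only 1 array. Its difference was 0.49 (SE 0.11, limma unadjusted p = 0.00176, adjusted p = 0.993). Snord61, which lies in an intron of the RNA-binding protein gene Rbmx, read 7.57, 7.73 and 7.56 in WT and 7.98, 7.99 and 7.90 in Lxn-/-, above background throughout. The groups did not overlap, WT pools 1 and 3 read nearly alike, and the difference of 0.34 (SE 0.074, 95% confidence interval 0.17 to 0.51, limma adjusted p = 0.993) stayed between 0.31 and 0.39 when any array was left out. The exact two-sided permutation p of Snord61 was 0.1, the smallest that 3 arrays against 3 can give. Any probe set without overlap has this value, so it adds nothing to the separation by which Snord61 was named.

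The largest difference of the family was that of Snord37, in the gene of the elongation factor Eef2. Its values were 9.29, 8.62 and 8.31 in WT and 9.23, 9.32 and 9.25 in Lxn-/-. WT pool 1 lay among the Lxn-/- pools, and the difference was 0.53 (SE 0.22, 95% confidence interval 0.03 to 1.02, limma adjusted p = 0.993), while Eef2 itself differed by -0.01. Snord73b, in the ribosomal protein gene Rps3a1, read 11.60, 11.67 and 11.36 in WT and 11.70, 11.67 and 11.83 in Lxn-/-, without overlap and with a difference of 0.19 (SE 0.096). Its neighbour in the same host, Snord73a, differed by 0.10 with overlapping values. The 2 probe sets of Snord58b differed by 0.19 and 0.20 without overlap, both at background level.

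Among H/ACA box members Snora75, in the gene of the nucleolar protein nucleolin (Ncl), had the lowest unadjusted p. It read 10.05, 9.84 and 9.42 in WT and 10.34, 10.15 and 10.18 in Lxn-/-. The groups did not overlap, WT pool 3 was the lowest by far, and the difference was 0.45 (SE 0.15, 95% confidence interval 0.10 to 0.80, limma unadjusted p = 0.0183, adjusted p = 0.993). Snord82, a C/D box snoRNA of the same host, read 12.01, 11.67 and 11.67 in WT and 11.75, 11.91 and 11.94 in Lxn-/-, with overlap and a difference of 0.08 (SE 0.11). The 2 snoRNAs of this gene thus did not share an order of pools, since WT pool 1 was above every Lxn-/- pool for Snord82 and below every one for Snora75.

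Snora3, of the ribosomal protein gene Rpl27a, was read by 2 probe sets that differed from each other by at most 0.051 on any array, so they are near copies of 1 measurement. One read 10.60, 10.48 and 10.11 in WT and 10.70, 10.84 and 10.69 in Lxn-/-, without overlap, and the differences of the pair were 0.35 each (SE 0.12 and 0.13). Snora33, of Rps12, read 8.54, 8.41 and 8.30 in WT and 8.56, 9.04 and 8.68 in Lxn-/-, a difference of 0.35 (SE 0.13) in which the lowest Lxn-/- value barely cleared the highest WT value. Snora31, of the growth-related gene Tpt1, read 9.47, 9.34 and 8.90 in WT and 9.50, 9.78 and 9.54 in Lxn-/-, with a difference of 0.37 (SE 0.15) and again a narrow gap to WT pool 1. Snora52, of the ribosomal stalk gene Rplp2, differed by 0.20 (SE 0.084) and Snora70, of Rpl10, by 0.12 (SE 0.068), both without overlap. Of the 13 probe sets without overlap, WT pool 3 was the lowest of the 6 arrays for all but the Snord58b pair, for which WT pool 2 was.

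**Figure D3:**
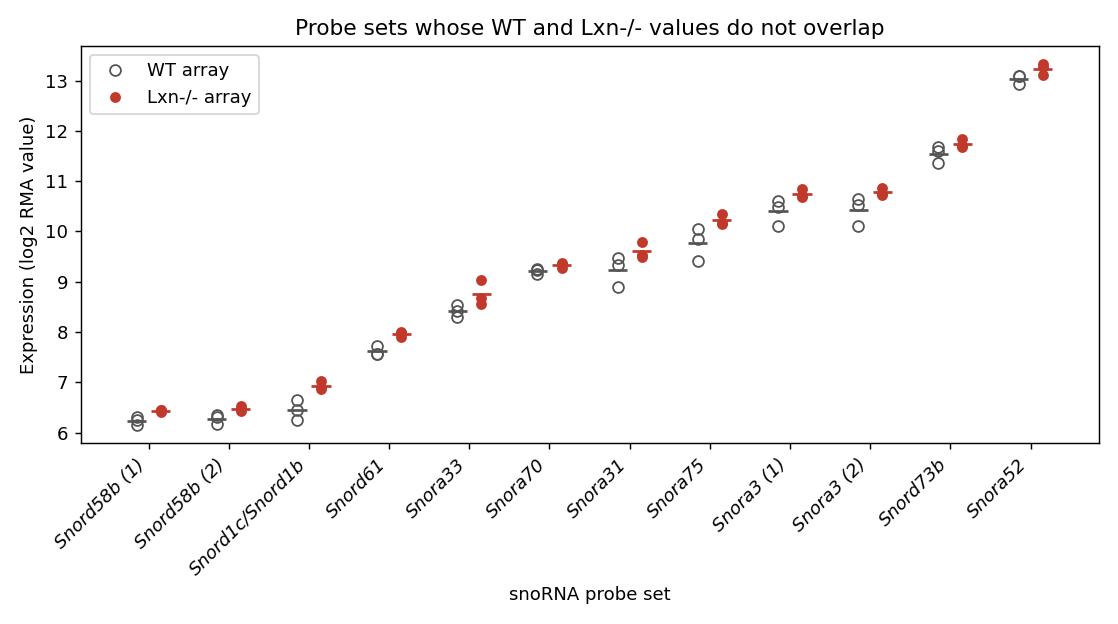
Points are the log2 values of single arrays, open for WT and filled for Lxn-/-, and bars are means over 3 arrays, for the 12 snoRNA probe sets without overlap once the identical copy of Snord1c/Snord1b is left out. Numbers in brackets tell 2 probe sets of a symbol apart; the gaps between the groups are small beside the WT spread for most, and Snord61 has a WT range of 7.56 to 7.73 against 7.90 to 7.99.

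snoRNAs required for cutting the rRNA precursor, of which U14 also guides a methylation, were a mixed group. U8 (Snord118), needed for the large subunit rRNAs, read 9.24, 8.48 and 8.54 in WT and 8.38, 8.83 and 9.09 in Lxn-/-. The pools of each genotype spread over the same range, and the difference was 0.01 (SE 0.24, 95% confidence interval -0.53 to 0.56). Snord22, needed for 18S rRNA and carried by Snhg1, read 8.85, 8.82 and 8.47 in WT and 8.95, 9.16 and 8.79 in Lxn-/-, with overlap and a difference of 0.25 (SE 0.13). Snora73a and Snora73b, the U17 snoRNAs of Snhg3, differed by 0.38 (SE 0.21) and 0.33 (SE 0.21). Lxn-/- pool 2 was the highest for both, at 10.97 each, against at most 10.49 and 10.42 in the other 5 pools. Without it the differences were 0.15 and 0.098, and without WT replicate 3 they were 0.30 and 0.19. Snord14e, a U14 snoRNA of the chaperone gene Hspa8, read 11.32, 10.58 and 10.20 in WT and 11.16, 10.88 and 11.03 in Lxn-/-, a difference of 0.32 (SE 0.25) with WT pool 1 the highest of all. Further U14 probe sets also name a host gene and lie outside the symbol rule. That of Snord14a and Rps13 differed by 0.46 (SE 0.14) without overlap. Those of Snord14c and Snord14d with Hspa8 differed by 0.30 each (SE 0.20) with overlap. U3, the most abundant of these RNAs and listed as Rnu3a outside the symbol rule, read 9.50, 10.10 and 9.88 in WT and 9.64, 9.88 and 9.88 in Lxn-/-, a difference of -0.03 (SE 0.15).

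Other members varied between pools in their own ways. Snord42a and Snord42b of Rpl23a, Snord53 of Wdr43 and Snora2b of Kansl2 were high in WT pool 1 and Lxn-/- pool 1 alike. Snord42a, for instance, read 9.11, 8.16 and 7.84 in WT and 8.87, 8.41 and 8.42 in Lxn-/-. Snord15a and Snord15b of Rps3 were highest in WT pool 2, at 9.15 and 11.10, and differed between genotypes by 0.01 (SE 0.17) and -0.04 (SE 0.19). Snora16a of Snhg12 was likewise highest in WT pool 2, at 11.28, and differed by 0.02 (SE 0.24), although Snora44 of the same host was lowest in WT pool 3, at 8.87, and differed by 0.30 (SE 0.23). Snora23 of the importin gene Ipo7 read 11.01, 11.05 and 11.18 in WT and 10.63, 11.50 and 11.41 in Lxn-/-, so the Lxn-/- pools enclosed the WT pools.

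The snoRNAs of Rpl13a, known for their part in the response to lipid stress, had differences near or below the family's median of 0.21. Snord35a read 10.01, 9.79 and 9.52 in WT and 9.96, 10.08 and 9.99 in Lxn-/-, a difference of 0.24 (SE 0.12), and Snord33 differed by 0.19 (SE 0.10). The probe sets of Snord34 and Snord32a, which also name Rpl13a itself, differed by 0.14 (SE 0.094) and 0.04 (SE 0.13). Snord95 and Snord96a of Rack1, a ribosome scaffold gene, differed by 0.19 (SE 0.10) and 0.16 (SE 0.12), all with overlap. Of the probe sets with the brightest signal in their class, Snord104, Snord57, Snord49b and Snora7a differed by 0.17, 0.10, 0.16 and 0.11, and Snord16a by 0.25, with overlapping genotypes in each case.

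Most of the host genes that could be measured differed less between genotypes than their snoRNAs did. A probe set with exactly 1 symbol measured the host of 33 of the snoRNA probe sets, through 25 distinct hosts, all above background on every array. The median level of these hosts was 12.43, against 9.41 for the snoRNA probe sets. For 23 other snoRNA probe sets the host had no such probe set, among them those of Snhg1, Snhg3, Snhg12 and Rpl13a. Of the noncoding hosts only Snhg16 and Gas5 were measured, with a median difference of 0.17. Over these 33 pairs the median difference was 0.25 for the snoRNAs and 0.027 for the hosts, and the snoRNA exceeded its host in 30. Both were higher in 21 pairs, the snoRNA was higher and the host lower in 11, and 1 pair had it the other way. The median of snoRNA minus host difference was 0.22, and 0.15 without WT replicate 3. Array by array, the median over pairs of the snoRNA's deviation minus its host's was 0.032, -0.12 and -0.26 in WT pools 1 to 3 and 0.083, 0.070 and 0.14 in Lxn-/- pools 1 to 3. The genotypes did not overlap here, with means of -0.11 ± 0.14 in WT and 0.097 ± 0.036 in Lxn-/- (SD, n = 3 each), and WT pool 1 lay close to the Lxn-/- pools. Ncl, the host of Snora75, read 12.69, 12.58 and 12.71 in WT and 12.75, 12.71 and 12.65 in Lxn-/-, a difference of 0.05 (SE 0.068). Rpl27a, the host of Snora3, was lower by -0.08 (SE 0.063), and Tcp1, the host of Snora20, by -0.08 (SE 0.10) where Snora20 was higher by 0.49 (SE 0.25). The low snoRNA values of WT pool 3 were not seen in the median of all measured hosts, whose deviation on that array was 0.0072. Snhg16 and Gas5 were both lowest there, with a median deviation of -0.18.

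The host with the largest difference was the noncoding Snhg16, followed by Rps12 at 0.16 (SE 0.096) and the noncoding Gas5. Snhg16 read 9.18, 9.23 and 9.06 in WT and 9.35, 9.37 and 9.34 in Lxn-/-, without overlap, a difference of 0.20 (SE 0.069, limma unadjusted p = 0.0222, adjusted p = 0.993). Gas5, whose spliced RNA carries little coding sequence, read 12.42, 12.17 and 12.16 in WT and 12.37, 12.36 and 12.45 in Lxn-/-, a difference of 0.14 (SE 0.086), and its snoRNA Snord47 differed by 0.11 (SE 0.085). Rbmx, the host of Snord61, differed by 0.12 (SE 0.082). The 10 ribosomal protein hosts had a median of 0.003 with 5 of 10 higher, while the 24 snoRNA probe sets from such hosts had a median of 0.20 with 23 higher. By kind of host the median snoRNA difference was 0.26 for the 14 probe sets with noncoding hosts and 0.22 for the 18 with other coding hosts, with overlapping ranges.

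**Figure D4:**
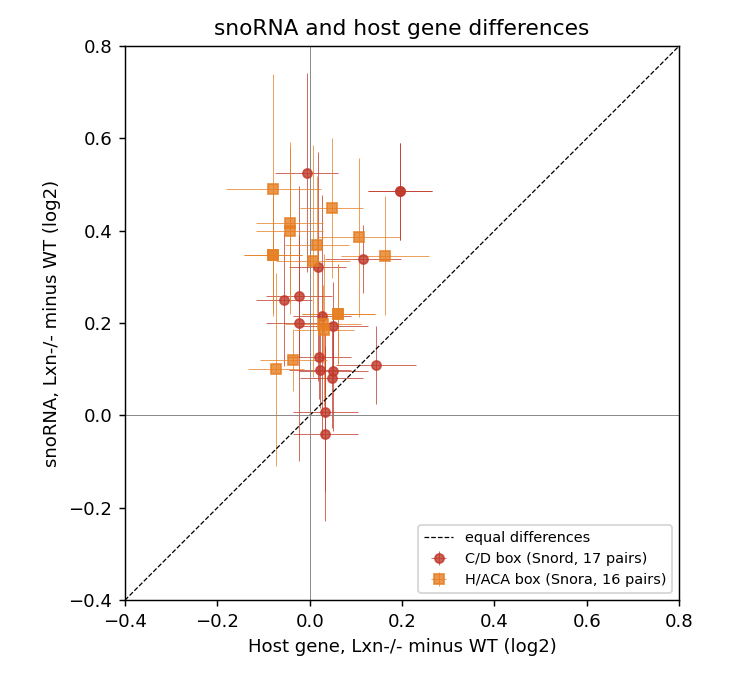
Each point is a snoRNA probe set placed by the Lxn-/- minus WT difference of its host gene (horizontal axis) and its own (vertical axis), both in log2 units, with bars for limma's standard error; 33 pairs are shown and some share a host. Of these, 30 lie above the dashed line of equal differences, and the host differences stay between -0.08 and 0.20.

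Genes for the proteins that bind and build these particles had small differences. The lists held 4 C/D core protein genes, 4 H/ACA core protein genes, 10 assembly factor genes and 8 rRNA transcription genes, with median differences of 0.027, 0.032, -0.024 and -0.013. None of these genes had an adjusted or unadjusted p under 0.05 in limma, beside 0% and 3.90% of all probe sets tested. In lists this short a count of 0 is near those shares. Fibrillarin (Fbl), the methyltransferase of C/D particles, differed by -0.09 (SE 0.062) with all Lxn-/- values below all WT values, and dyskerin (Dkc1), the pseudouridine synthase of H/ACA particles, by 0.004 (SE 0.13). Nop58 and Nop56, the other C/D scaffold proteins, differed by 0.05 (SE 0.061), without overlap, and 0.02 (SE 0.067). Of all probe sets tested, 5.38% were lower without overlap, as Fbl was, and 3.6% higher, as Nop58 was. Among assembly factors the largest difference was that of the ATPase gene Ruvbl2, at -0.20 (SE 0.13), and Taf1d, itself a host of snoRNAs, differed by 0.12 (SE 0.092).

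Relatives outside the symbol rule were measured on the same arrays. A further 39 probe sets named a snoRNA together with another kind of gene, so they cannot be assigned to either. Of these, 24 belonged to the imprinted Snord116 cluster of brain-type snoRNAs, and 0 of the 24 were above background on all arrays. The other 15 were all higher in Lxn-/-, with a median of 0.30 and 4 at an unadjusted p under 0.05, beside 1.47% of all probe sets called higher. The probe set of Snord7 and AI450353 read 7.23, 7.13 and 7.05 in WT and 7.50, 7.54 and 7.66 in Lxn-/-, without overlap and with a difference of 0.43 (SE 0.078, limma unadjusted p = 0.000557, adjusted p = 0.993). The small Cajal body RNAs, which guide modification of spliceosomal RNAs, were higher for 4 of 4 probe sets, 2 of them with identical values. Their median difference was 0.18, close to the 0.19 of the C/D box snoRNAs, and all 4 were lowest in WT pool 3. Scarna13 read 12.18, 12.06 and 11.28 in WT and 12.14, 12.48 and 12.14 in Lxn-/-, so its difference of 0.42 (SE 0.22) came with overlap. Telomerase RNA (Terc), which carries an H/ACA domain, differed by 0.24 (SE 0.12), the RNase MRP RNA Rmrp by 0.34 (SE 0.24) and the RNase P RNA Rpph1 by 0.14 (SE 0.14).

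The gene groups given next had smaller medians than the family. Nearer relatives came closer to it or exceeded it, with 0.18 for the small Cajal body RNAs and 0.30 for the 15 shared probe sets above. The 10 probe sets of small nuclear and related noncoding RNAs, among them U3, Terc, Rmrp and Rpph1, had a median of 0.11 with 9 higher and 5 lowest in WT pool 3. The 298 microRNA probe sets had a median difference of 0.017 with 169 higher, and the 99 of them above background on all arrays had 0.010 with 54 higher, and a median deviation of -0.051 in WT pool 3. The 223 probe sets of ribosomal protein genes had a median of 0.033 with 152 higher and a deviation of -0.057 there. Odorant and pheromone receptor genes, which stand for background, had a median of -0.019. Each median from the small nuclear RNAs to the receptor genes is smaller than the 0.21 of the snoRNA probe sets, and whether they differ from it was not tested.

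The family's counts were also taken under other array scalings, which moved the whole array as well. With quantile normalization the median difference was 0.18 and 54 of 58 probe sets were higher, beside 36.5% of all probe sets. A common array median gave 0.20 and 56, beside 41.2%, and a common median of the receptor probe sets gave 0.23 and 57, beside 54.9%. At an unadjusted p under 0.05 there were 12, 13 and 18 snoRNA probe sets under these 3 scalings, beside 0.927%, 1.2% and 2.28% of all probe sets called higher. Those without overlap numbered 11, 12 and 15, beside 2.21%, 2.97% and 5.28%. The median of all probe sets itself lay between -0.032 and 0.012. Relative to it the family stood at 0.22 as deposited and with quantile normalization, while the other scalings shift all probe sets of an array alike and cannot change that value.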

How the data were processed

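RNA was taken up on RNeasy columns and 100 ng was labelled, per the labels' protocols, for Affymetrix MoGene-1-0-st-v1 arrays. The deposited log2 values came from RMA in the authors' hands, and Partek 6.0 is also named, per the submitters' processing notes. Whether a probe set reads a mature snoRNA or its host's intron is not known here. All 23410 probe sets with a symbol entered 1 limma 3.58.1 fit (R 4.3.3; lmFit and eBayes, no covariates, two-sided, Benjamini-Hochberg over all of them); 12147 unnamed probe sets entered an alternative. SD is over arrays, SE is limma's.

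A host is the gene of the RefSeq table (GRCm38.p6) that contains the snoRNA gene. The table gives no strand, so the planned same-strand condition was not applied; for the 3 snoRNAs inside 2 genes the known host was taken (Gas5, Snhg6, Chd8). The host's probe set is the brightest with exactly 1 symbol. Named by rule were members of 1 symbol with no overlap, the 5 brightest of each class, rRNA processing snoRNAs, those of chosen hosts, particle proteins and relatives; Snord1c with Snord1b, Snord37, Snord7, Snora20 and the members that vary in their own ways were chosen after their values were seen. Members and lists were chosen with earlier results of these data known. Alternatives covered scaling, probe sets tested, a filter on dim probe sets, array weights, an intensity trend, 1 probe set per symbol, the replicate block and leaving out each array. The number of arrays limits the precision.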

Additional observations from a re-analysis of the deposited data

How the results depend on the processing

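No snoRNA reached an adjusted p of 0.05 in limma under any alternative run, and the class medians, the H/ACA minus C/D difference and the snoRNA minus host difference kept their sign. When single arrays were left out, the C/D box median lay between 0.078 and 0.24, the H/ACA minus C/D difference between 0.056 and 0.20, and the snoRNA minus host difference between 0.15 and 0.35. The number at an unadjusted p under 0.05, 14 as reported, was 9 when all probe sets of the table were tested and 22 with array weights, where 2.84% and 3.36% of all probe sets were called higher, against 1.47%. With 1 probe set per symbol and identical values once it was 10 of 52, beside 1.33% of all called higher. Leaving out single arrays gave 4 to 30 for that number, beside 0.914% to 3.34% of all probe sets called higher. The number with no overlap between genotypes was then 13 to 34, beside 6.01% to 10.2% of all as higher. Signs turned for Snord118 with quantile normalization (-0.045), for Snora16a (-0.30) and Snora7a (-0.0087) with array weights, and, when single arrays were left out, for Snord118 (-0.15 to 0.26), Snora16a (-0.23 to 0.31) and Snora23 (-0.059 to 0.37). The cause was not tested. Of 427 values of named probe sets under alternatives, 410 kept their direction and side. Whether equal replicate numbers pair the samples is not known here, and the main fit took them as unpaired. Same-numbered deviations correlated at 0.37, -0.072 and -0.081, which cannot settle it. With the replicate block 20 snoRNA probe sets had an unadjusted p under 0.05 in limma, beside 2.10% of all called higher, and 0 an adjusted one. The dim probe sets and the 3 arrays per genotype limit what these values can separate.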
